A study of Mus musculus with 8 samples.

Results

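Genes of the unfolded protein response and the integrated stress response were examined in the livers of obese, diabetic male mice treated with control or AF1 peptide. The 39 genes were chosen by name from what is known of these pathways, and each of the 39 had a row among the 21532 genes measured. They comprised 15 folding genes of the endoplasmic reticulum (ER), 7 genes of ER-associated degradation, 2 subunits of the translocon, 6 sensors and transcription factors, and 9 genes of the PERK/ATF4 arm. All 39 passed the minimum mean normalized count of 10 that left 15989 genes for testing. Derl3 did so only through the AF1 peptide group, since its control mean was 8.36.

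RNA was sequenced from whole liver of 8 male mice of the db/db genotype, whose leptin receptor does not work, with 4 mice in the control group, 4 in the AF1 peptide group and 1 library per mouse. From 8 weeks of age, mice of both groups were injected behind the eye with control or AF1 peptide at 5 mg/kg body weight, 2 times a week for 5 weeks. AF1 peptide is derived from the AF1 region of estrogen receptor α, and what the control injection contained is not given in the sources used here. All 8 mice carried the db/db genotype and no lean mice are among the samples, so each value compares treatments within diabetic liver and none sets diabetic against normal liver.

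Libraries held 23031880 to 45117528 reads, and depth did not differ detectably between groups (P = 0.686, two-sided exact permutation test, for which the smallest possible p is 0.0286). AF1 peptide replicate 1 stood apart from the other 7 mice on the leading principal component (39.3% of the variance over tested genes), at 74.3 against -21.8 to 2.33. Mitochondrial transcripts took 20.8% of its reads against 34.3 to 37.8% in the remaining mice of its group and 22.4 to 34.3% in controls (P = 0.4 between groups, two-sided exact permutation test). The summed normalized count of 10 Kupffer cell and macrophage markers was 3384 in this mouse, 7617 to 9520 in controls, and at most 9198 in the rest of its group. Sums in this mouse were also the lowest of the 8 for stellate cell (9559), sinusoidal endothelial (5798), cholangiocyte (1219) and red blood cell markers (27127). The hepatocyte sum was lowest too (1980408), whereas that of plasma and B cell markers was highest (7149). All 10 hepatocyte markers were in the table, and AF1 peptide replicate 1 was the highest of the 8 mice in 6 of them and the lowest in 4. Among the former were Tat, an enzyme of tyrosine breakdown, at a normalized count of 68707 against at most 23826 elsewhere, and Cps1, of the urea cycle, at 34576 against at most 13727. Among the latter was Alb, which encodes albumin, at 1224160 against 1511745 to 1997674 elsewhere. In whole liver, fewer cells of a type and less RNA per cell cannot be told apart. Counts of the 39 genes and of the wider pathway lists passing the test are given with and without this mouse below.

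The ER folds and modifies secreted and membrane proteins, and hepatocytes, which secrete most plasma proteins, hold a large amount of it. When unfolded proteins accumulate, 3 sensors respond: ATF6 is cut to release a transcription factor, IRE1 splices the mRNA of Xbp1 so that it encodes one, and PERK phosphorylates the translation factor eIF2α, which slows protein synthesis while the mRNA of Atf4 is translated more. ATF6 and XBP1 drive chaperone, ER degradation and translocon genes, whereas ATF4 drives amino acid synthesis, amino acid transport and CHOP, a factor linked to cell death. Other kinases of eIF2α, which sense amino acid shortage, viral RNA and heme shortage, reach the same ATF4 genes, and that wider route is the integrated stress response. Counts per gene show the amount of mRNA; the cutting of ATF6, the splicing of Xbp1 and the phosphorylation of eIF2α are not visible in them.

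Some promoters of the folding and degradation genes carried known elements of this response. The genes were chosen by name as known members of the response, so their promoter shares are not independent of that choice. The RefSeq table (GRCm38.p6), which gives 250 bases before to 50 bases after each start site, held promoters of 33 of the 39 genes. The ER stress response element (ERSE), spelled CCAAT, then any 9 bases, then CCACG, was found on either strand in 9 of 33 promoters (27.3%) and in 37 of the 27025 promoters of the whole table (0.137%). Those 9 were 7 of 13 folding genes (Hspa5, Hsp90b1, Calr, Canx, Pdia6, Dnajc3 and Creld2) and 2 of 6 degradation genes (Syvn1 and Derl3), with none among the 8 promoters of the PERK/ATF4 arm or the 5 of the sensors and factors. The related ERSE-II, spelled ATTGG, any base, then CCACG, was present in Dnajb11 and Herpud1, which is 6.06% of the 33 promoters against 0.0444% of all. A C/EBP-ATF element, TGATGNAA, was present in 4 promoters (12.1% against 4.51% of all), those of Herpud1, Trib3, Chac1 and Asns, so that 3 of 8 genes of the PERK/ATF4 arm held it. The cyclic AMP-type letters TGACGTGG, TGACGTGT or TGACGTCA were in 1 promoter, that of Ppp1r15a (3.03% against 3.25% of all). No match of one element overlapped a match of another. These are matches of letters and were not tested as binding sites.

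The stretches below, from RefSeq GRCm38.p6, show these elements in genes whose values follow. Each is written 5′ to 3′ on the strand of its gene, with the matched element in capitals. In Derl3, Chac1 and the second match of Hsp90b1 the element lies on the opposite strand, so that the capitals are its reverse complement. The match began 65 bases before the start site in Hspa5, 44 in Syvn1, 156 in Derl3, 52 in Herpud1, 23 in Asns and 193 in Chac1, and 212 and 107 bases before it in Hsp90b1.
Hspa5, ERSE, chr2:34772015-34772053, plus strand: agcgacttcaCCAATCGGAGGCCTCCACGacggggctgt
Hsp90b1, ERSE, chr10:86705523-86705666, minus strand: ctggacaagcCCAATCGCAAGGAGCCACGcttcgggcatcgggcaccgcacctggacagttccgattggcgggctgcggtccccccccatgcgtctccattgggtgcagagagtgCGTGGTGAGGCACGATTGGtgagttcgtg
Syvn1, ERSE, chr19:6046522-6046560, plus strand: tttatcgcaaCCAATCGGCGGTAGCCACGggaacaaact
Derl3, ERSE, chr10:75893232-75893270, plus strand: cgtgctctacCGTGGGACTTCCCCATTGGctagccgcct
Herpud1, ERSE-II, chr8:94386367-94386397, plus strand: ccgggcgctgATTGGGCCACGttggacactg
Asns, C/EBP-ATF element, chr6:7693215-7693242, minus strand: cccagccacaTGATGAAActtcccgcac
Chac1, C/EBP-ATF element, chr2:119351039-119351066, plus strand: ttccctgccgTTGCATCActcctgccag

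Levels of the 39 genes, as mean normalized counts over the 8 mice per kb of exon, ran from 13427 for P4hb to 7.36 for Derl3. P4hb, a protein disulfide isomerase and subunit of prolyl hydroxylase, stood first, followed by Atf5 (6767 per kb), Calr (4851), Hsp90b1 (3026), and Creb3l3 (2500), a liver-enriched ER factor related to ATF6. Hspa5, the ER chaperone BiP, was at 1355 per kb and Atf4 at 1705. Of the sensors, Atf6 was at 100.2 per kb, Eif2ak3 at 41.4 and Ern1 at 38.0. Derl3, Chac1 (13.3) and Asns (20.3, most of it from 1 mouse) were the lowest.

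Few of these genes differed between control and AF1 peptide-treated mice. Of the 39, 2 passed the test (5.13%), which was limma on log2(normalized count + 1) with an unadjusted p under 0.05, against 990 of the 15989 genes tested (6.19%). Derl3, an ER degradation factor, was higher in AF1 peptide-treated mice and Eif2ak3, which encodes PERK, was lower, beside 3.16% of all tested genes called higher and 3.03% called lower. After Benjamini-Hochberg adjustment no gene of the 15989 passed in limma and the smallest adjusted p of the 39 genes was 0.763. edgeR on the recovered reads also gave 0 genes at that adjusted threshold, and DESeq2 gave 3, none of them among the 39. Derl3 was the only one of the 39 whose control and AF1 peptide values did not overlap, as in 3.90% of all tested genes. Derl3 met the minimum mean count only through the AF1 peptide group, so its call and its lack of overlap are not independent of that filter. With at least 10 required in every mouse, Derl3 was not tested. Of this set 1 gene was then called, and 0 higher. The median log2 fold change was -0.10 over the 39 genes and -0.01 over all tested genes, with 26 of the 39 below 0. The 95% interval of the log2 fold change lay within a 1.5-fold change in either direction for 32 of the 39 genes and within 2-fold for 37.

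**Figure D1:**
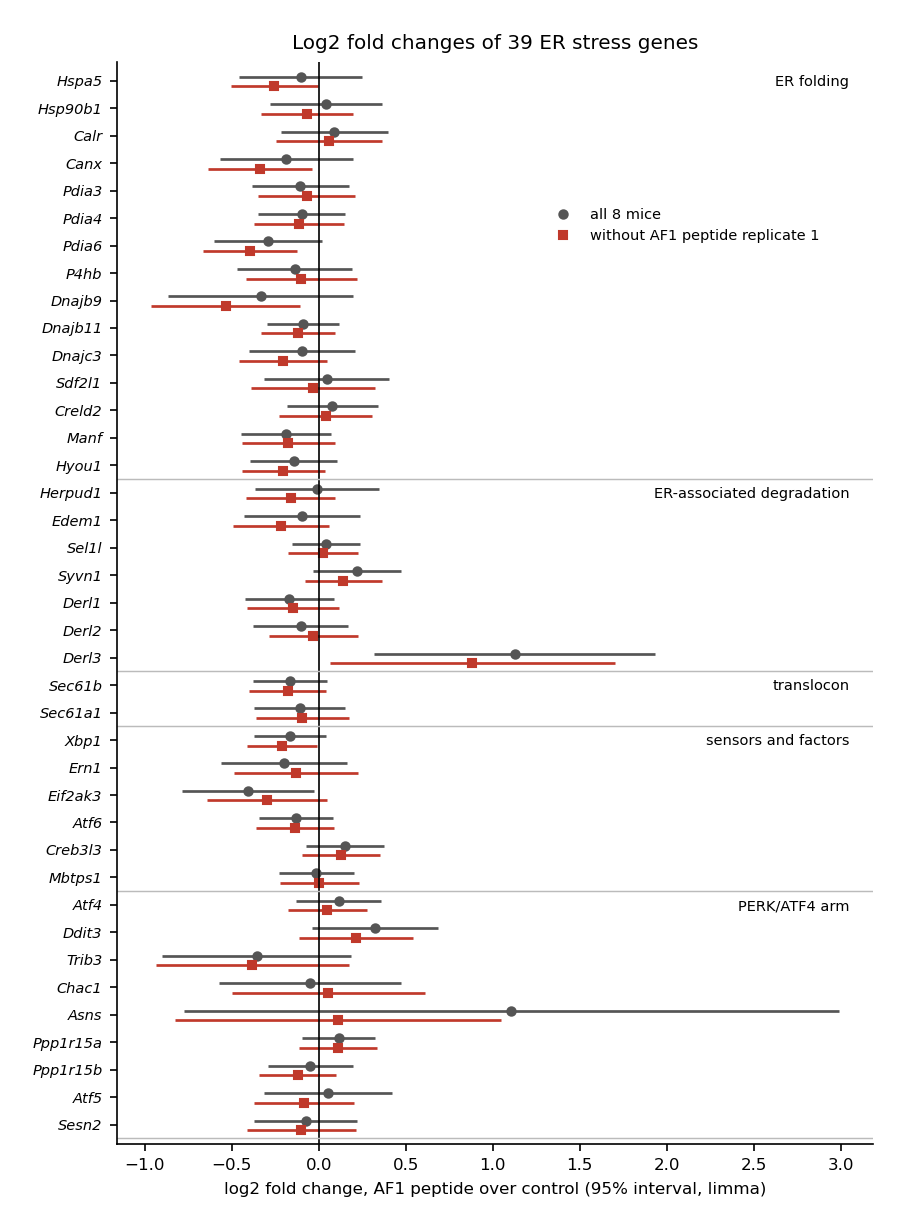
Log2 fold change of each of the 39 genes, AF1 peptide over control (x axis), with its 95% interval from limma, for all 8 mice (grey circles) and without AF1 peptide replicate 1 (red squares), grouped by class. With all 8 mice only the intervals of Derl3 and Eif2ak3 exclude 0, and the interval of Asns runs from -0.77 to 2.99.

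The 15 folding genes include the chaperones Hspa5, Hsp90b1, Hyou1 and Dnajc3, the lectin chaperones Calr and Canx, and the disulfide isomerases P4hb, Pdia3, Pdia4 and Pdia6. None of the 15 passed the test with all 8 mice, against 6.19% of all tested genes. Their median log2 fold change was -0.10, and 11 were below 0. Hspa5 had normalized counts of 6999.6, 5766, 5262 and 5592 in control replicates 1 to 4 and 7470.0, 4920.5, 4658 and 5185 in AF1 peptide replicates 1 to 4. AF1 peptide replicate 1 was above every control and replicates 2, 3 and 4 of its group were below every control. Its log2 fold change was -0.10 ± 0.16 (SE; 95% interval -0.46 to 0.25; limma P = 0.522; exact permutation P = 0.514). Pdia6 had counts of 2133, 2299, 1780.3 and 2117 in controls and 2085, 1494, 1405 and 1869 after AF1 peptide, a log2 fold change of -0.29 ± 0.14 (SE; limma P = 0.0612; exact permutation P = 0.143). The AF1 peptide replicates 2 and 3 were below all controls and the others were within their range. Manf, a secreted ER stress protein, was at 1432, 1319, 1117 and 1108 in controls and 1055, 1222, 973 and 1103 after AF1 peptide. AF1 peptide replicate 2 was within the range of controls and the other 3 were below it, and the log2 fold change was -0.19 ± 0.12 (SE; limma P = 0.132; exact permutation P = 0.143). The fold changes of the 15 genes ranged from -0.33 to 0.09 on the log2 scale, and 13 of the 15 intervals lay within 1.5-fold.

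**Figure D2:**
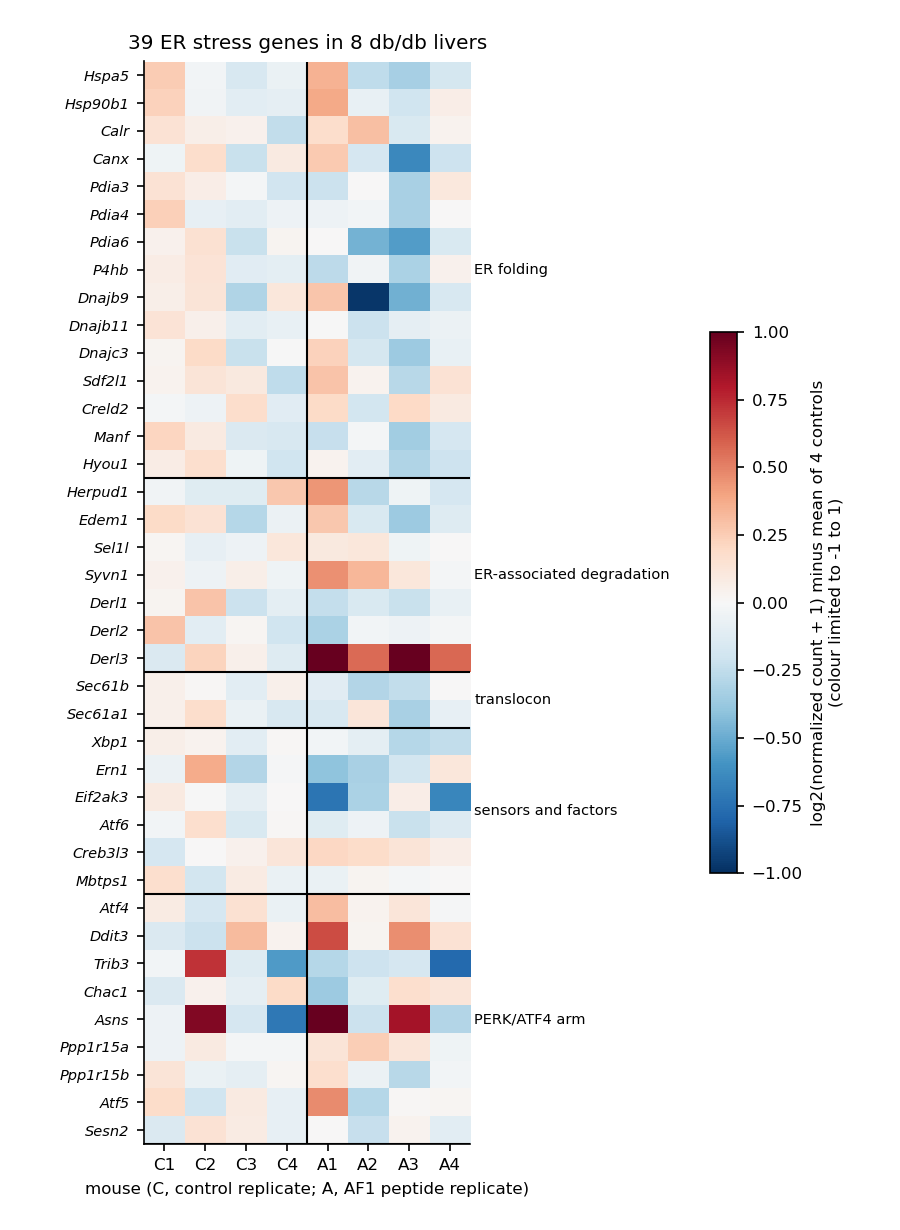
Each row is one of the 39 genes and each column one of the 8 mice; the colour is log2(normalized count + 1) minus the mean of the 4 control mice, limited to -1 to 1. AF1 peptide replicate 1 is above the control mean in 10 of 15 folding genes. AF1 peptide replicate 3 is blue in most folding genes, and Derl3 is red in all 4 AF1 peptide columns.

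The spread of the folding genes was between mice as much as between groups. AF1 peptide replicate 3 was the lowest of the 8 mice in 11 of 15 folding genes, against 17.9% of all tested genes. That count was also 11 with TMM scaling and was 7 with libraries rescaled to equal totals. AF1 peptide replicate 1 was the highest of the 8 mice in 6 of 15 folding genes, 4 of 7 degradation genes and 5 of 9 genes of the PERK/ATF4 arm, against 25.9% of all tested genes. Averaged over the 15 folding genes, the log2 difference from the control mean was 0.11, 0.08, -0.10 and -0.09 in control replicates 1 to 4, and 0.10, -0.16, -0.30 and -0.05 in AF1 peptide replicates 1 to 4. Control replicates 3 and 4 therefore lay below AF1 peptide replicate 4, and the groups overlapped.

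**Figure D3:**
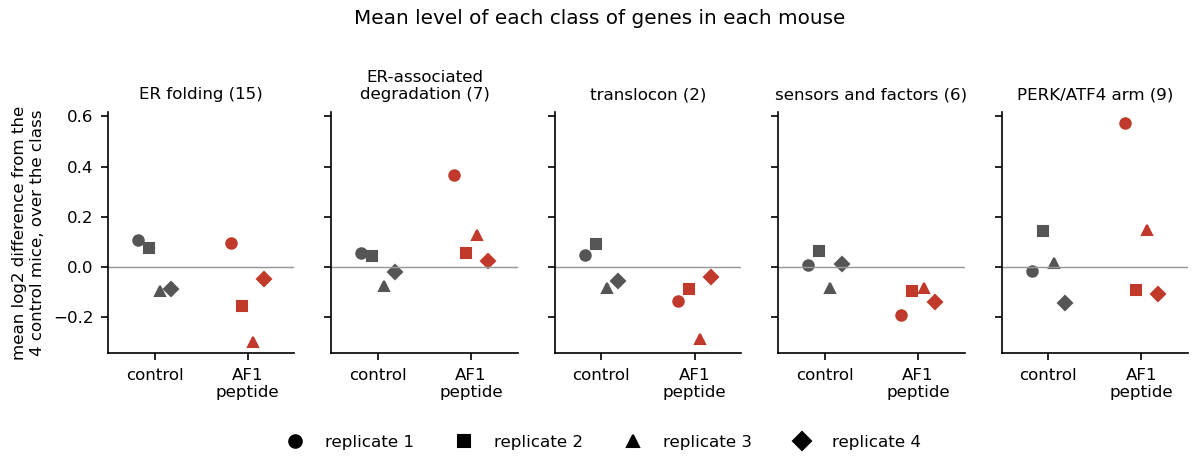
Mean log2 difference from the 4 control mice over the genes of each class (y axis), 1 point per mouse, with the number of genes in parentheses and a marker for each replicate number. Folding genes of AF1 peptide replicate 3 average -0.30, and genes of the PERK/ATF4 arm of AF1 peptide replicate 1 average 0.58, which is 0.13 without Asns.

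Without AF1 peptide replicate 1, 6 of the 39 genes passed the test (15.4%), against 1603 of 15994 genes (10.02%). Lower in the remaining 3 AF1 peptide-treated mice were Hspa5, Canx, Pdia6, Dnajb9 and Xbp1, which is 5 of 39 (12.8%) against 5.45% of all genes tested, and Derl3 was again higher. Of the 5, 4 belonged to the 15 folding genes. The mouse left out was the highest of the 8 for Hspa5, Canx (2129 against at most 2001) and Dnajb9 (214 against at most 193). Leaving it out therefore lowers the AF1 peptide means of these genes by itself. For Pdia6 and Xbp1 it was within the range of the other mice. In limma the log2 fold changes were -0.26 for Hspa5 (P = 0.0448), -0.34 for Canx (P = 0.0287), -0.39 for Pdia6 (P = 0.00808), -0.54 for Dnajb9 (P = 0.0181), a co-chaperone of BiP, and -0.21 for Xbp1 (P = 0.0430), while an exact permutation test of 3 mice against 4 cannot go below 0.0571. The exact permutation test gave P = 0.0571 for Hspa5, 0.171 for Canx, and 0.114 for each of Pdia6, Dnajb9 and Xbp1. Hspa5 was then at most 5185 in AF1 peptide-treated mice and at least 5262 in controls, so that the groups did not overlap. In the other 3 of these folding genes the groups still overlapped. The median log2 fold change of the 15 folding genes was -0.12, with 13 of 15 below 0. No adjusted p of the 39 genes was under 0.457 in this smaller set. Which of the 2 sets represents the treatment cannot be told apart from these 8 mice.

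The ER-associated degradation genes carry misfolded proteins back to the cytosol and mark them with ubiquitin. Of the 7, 1 passed the test (14.3%, against 6.19% of all tested genes). Derl3, a membrane protein of the retrotranslocation complex, had normalized counts of 7.42, 9.85, 8.65 and 7.54 in controls and 32.7, 12.8, 25.5 and 12.9 in AF1 peptide-treated mice. Each AF1 peptide-treated mouse was above each control, with replicates 1 and 3 the highest. The means were 8.36 ± 1.14 in controls and 21.0 ± 9.84 in AF1 peptide-treated mice (SD, 4 mice each), a ratio of 2.51. On the log2(normalized count + 1) scale, which understates changes at low counts, the fold change was 1.13 ± 0.36 (SE; 95% interval 0.32 to 1.93; limma P = 0.0109; adjusted P = 0.763; exact permutation P = 0.0286, the smallest that 4 against 4 allows). These counts stood on 9, 10, 8 and 9 reads in controls and 35, 7, 31 and 14 reads in AF1 peptide-treated mice, and the 7 reads of AF1 peptide replicate 2 came from the shallowest library. Derl3 reached the minimum mean of 10 only through the AF1 peptide group, since its control mean was under it. It passed the test in each of the 8 sets with 1 mouse left out (log2 fold change 0.88 to 1.31). Those sets kept the same minimum, so they are no separate support. Derl3 was not tested where a count of 10 was required in every mouse. Its relatives Derl1 and Derl2 did not pass the test, with log2 fold changes of -0.17 and -0.10, and AF1 peptide replicate 1, the highest of the 8 mice for Derl3, was the lowest for both.

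Derl3 is abundant in antibody-secreting plasma cells and pancreatic acinar cells, so markers of those cells were read in the same libraries. Of 10 plasma and B cell markers, 7 were in the table and 6 were tested, and none passed. Their summed normalized count ranged from 3138 to 4615 in controls and from 2350.2 to 7149 after AF1 peptide, and was mostly Sdc1, which hepatocytes also express. Jchain, the joining chain of antibodies, was at 27.2, 22.7, 12.97 and 19.3 in controls and 36.4, 12.8, 10.7 and 11.9 in AF1 peptide-treated mice. Mzb1, an ER protein of plasma cells, was at 22.3, 15.8, 12.97 and 26.0 in controls and 21.5, 18.3, 22.2 and 24.8 in AF1 peptide-treated mice. Jchain was highest in AF1 peptide replicate 1 but not raised in AF1 peptide replicate 3, where Derl3 was also high, and Mzb1 overlapped between groups. Of 10 acinar markers, 1 (Cela1, 193 to 249.7 in controls and 181 to 221 in AF1 peptide-treated mice) was in the table, and it did not pass the test. The part of other cell types in the Derl3 difference was not tested further.

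Syvn1, which encodes HRD1, the ubiquitin ligase of the pathway, was at 1886, 1772, 1907 and 1781 in controls and 2523, 2305, 1983 and 1811 in AF1 peptide-treated mice. AF1 peptide replicates 1, 2 and 3 were above every control and replicate 4 was within their range. The log2 fold change was 0.22 ± 0.11 (SE; 95% interval -0.03 to 0.47; limma P = 0.0799; exact permutation P = 0.114). Herpud1, Edem1 and Sel1l, the partner of HRD1, had log2 fold changes of -0.01, -0.10 and 0.04. The median of the 7 genes was -0.01.

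Sec61b and Sec61a1 encode subunits of the channel through which new proteins enter the ER. Sec61b was at 1498, 1460.4, 1347 and 1498 in controls and 1338, 1179.9, 1219 and 1457 in AF1 peptide-treated mice, with replicate 4 within the range of controls and the other 3 below it. Its log2 fold change was -0.16 ± 0.10 (SE; limma P = 0.118; exact permutation P = 0.0571). In the annotation 17.4% of the 50-base words of Sec61b are shared with Gm10320, so its count is uncertain. Sec61a1 was at 2755, 3001, 2548 and 2389 in controls and 2388, 2904, 2128 and 2513 in AF1 peptide-treated mice. AF1 peptide replicates 1 and 3 were below the lowest control and replicates 2 and 4 within the range, with a log2 fold change of -0.11 ± 0.12 (SE; limma P = 0.370; exact permutation P = 0.371).

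Of the 6 sensors and factors, Eif2ak3 alone passed the test (16.7%, against 6.19% of all tested genes). It had normalized counts of 300.0, 281, 265 and 282 in controls and 169, 226, 295 and 179 in AF1 peptide-treated mice. AF1 peptide replicates 1, 2 and 4 were below every control, whereas replicate 3 was within the range of controls. The means were 282 ± 14.4 and 217 ± 57.5 (SD, 4 mice each), and the log2 fold change was -0.41 ± 0.17 (SE; 95% interval -0.79 to -0.03; limma P = 0.0370; adjusted P = 0.763; exact permutation P = 0.114). The call was not stable, since the unadjusted p was 0.0708 with the gene's own variance, 0.0556 in edgeR and 0.0574 in DESeq2. Eif2ak3 passed in 2 of the 8 sets with 1 mouse left out, and without AF1 peptide replicate 1 its log2 fold change was -0.30 with an unadjusted limma p of 0.0829.

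Xbp1 mRNA was at 2398, 2352, 2139 and 2319.7 in controls and 2260.1, 2146, 1885 and 1944 in AF1 peptide-treated mice. AF1 peptide replicates 3 and 4 were below every control and replicates 1 and 2 were within their range, with a log2 fold change of -0.16 ± 0.09 (SE; 95% interval -0.37 to 0.04; limma P = 0.109; exact permutation P = 0.0857). Ern1, which encodes IRE1, Atf6, and Mbtps1, the protease that cuts ATF6, had log2 fold changes of -0.20, -0.13 and -0.01. Creb3l3 ranged from 6366 to 7756 in controls and after AF1 peptide from 7489.9 to 8256, with a log2 fold change of 0.15, and did not pass the test.

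**Figure D4:**
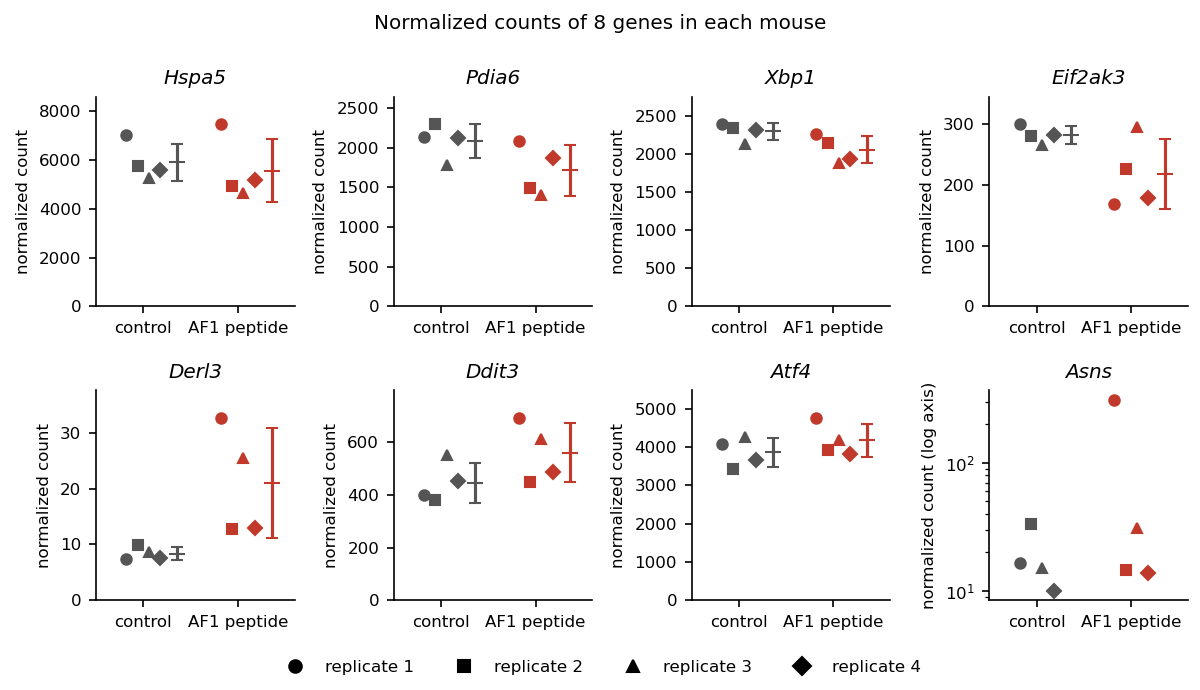
Normalized counts of 8 genes (y axes; logarithmic for Asns, otherwise from 0) in control (grey) and AF1 peptide-treated (red) mice, 1 marker per mouse by replicate number, with mean ± SD beside the points except for Asns. The 4 AF1 peptide-treated mice exceed all controls for Derl3, and 1 mouse at 310 stands above the rest for Asns.

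None of the 9 genes of the PERK/ATF4 arm passed the test, against 6.19% of all tested genes. So few genes cannot set the arm apart from that share. Their median log2 fold change was 0.05, or -0.04 with libraries rescaled to equal totals. Atf4 was at 4083, 3428, 4271 and 3666 in controls and 4768, 3932, 4192 and 3821 in AF1 peptide-treated mice, with replicate 1 above and the others within the range of controls. Its log2 fold change was 0.11 ± 0.11 (SE; 95% interval -0.13 to 0.36; limma P = 0.327; exact permutation P = 0.314). Ddit3, which encodes CHOP, was at 400.5, 381, 550.2 and 453 in controls and 693, 449, 611 and 489 in AF1 peptide-treated mice. Replicates 1 and 3 were above every control, and the log2 fold change was 0.32 ± 0.16 (SE; 95% interval -0.04 to 0.69; limma P = 0.0768; exact permutation P = 0.171). Trib3, a pseudokinase induced by CHOP, was at 468, 791, 438 and 322 in controls and 391.9, 415, 426 and 279 in AF1 peptide-treated mice. Control replicate 2 was the highest mouse, and the log2 fold change was -0.36 ± 0.25 (SE; limma P = 0.174; exact permutation P = 0.314). Without control replicate 2 the log2 fold change of Trib3 was -0.12.

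Asns, asparagine synthetase, a target of ATF4, differed in 1 mouse. It had normalized counts of 16.5, 33.5, 15.1 and 10.1 in controls and 309.8, 14.6, 31.3 and 13.8 in AF1 peptide-treated mice, from 332 reads in AF1 peptide replicate 1 and 8 to 38 reads in the others. The count of replicate 1 was 9.25 times the highest of the other 7 mice, and the remaining AF1 peptide-treated mice were within the range of controls. The log2 fold change was 1.11 ± 0.85 (SE; 95% interval -0.77 to 2.99; limma P = 0.220; exact permutation P = 0.486) and was 0.11 without that mouse. edgeR, with all 8 mice, gave Asns an unadjusted p of 0.0330. The gene is described here because of that value, which was seen first. The same promoter element is held by Chac1, Herpud1 and Trib3. Chac1, a glutathione-degrading ATF4 target, was lowest in this mouse, at 16.8 against 19.8 to 25.1 in the other 7. That value stood on 18 reads, against 11 to 30 in the others. Herpud1 was highest in this mouse, at 5945 against 3622 to 5293.5. Trib3, at 391.9, was within the range of the other mice (279 to 791).

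The other members of this arm differed little between groups. Ppp1r15a, the stress-induced eIF2α phosphatase subunit GADD34, had a log2 fold change of 0.11, and Ppp1r15b, its constitutive counterpart, one of -0.05. Atf5, a factor of the mitochondrial and ER stress responses, was at 18144 in AF1 peptide replicate 1 against 10714 to 14889 in the other 7 mice, with a log2 fold change of 0.05. Sesn2, a stress-induced regulator of nutrient signaling, was at 111 to 145 in all mice, with a log2 fold change of -0.08.

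Wider lists of the same pathways held 182 tested genes outside the 39, of which 11 passed the test (6.04%, against 6.19% of all genes tested), 10 of them lower. Without AF1 peptide replicate 1, 21 of the 182 passed (11.5%, against 10.02% of all genes), 18 of them lower (9.89% against 5.45%). Of the wider lists, ER to Golgi transport, which moves folded proteins onward, had the largest share called and was picked for it afterwards. In it, 4 of 25 genes (16%) were lower, against 3.03% of all genes, and 0 higher, with a median log2 fold change of -0.09. They were Copb1, Sec13 and Sec24d, which encode coat proteins of transport vesicles, and Sar1b, a GTPase of coat assembly. Copb1 is part of a different coat from Sec13 and Sec24d, and Sar1b acts on the coat of Sec13 and Sec24d. The log2 fold changes of these 4 genes were -0.33, -0.32, -0.49 and -0.36, with exact permutation P = 0.0286, 0.0286, 0.0857 and 0.0857. Copb1 was at 1029 to 1198 in controls and 833 to 1005 in AF1 peptide-treated mice, and Sec13 at 1492 to 1849 and 1236 to 1436, so that neither overlapped between groups. The adjusted P was 0.763 for each. The count of 4 became 2 with each gene's own variance, where Sec24d and Sar1b no longer passed, and also 2 without control replicate 1 or control replicate 2. Without AF1 peptide replicate 1, 4 of the 25 were lower, with Mcfd2, a cargo receptor subunit, in place of Sar1b.

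Elsewhere in the pathway single genes passed, and each count below stands beside 6.19% of all tested genes. Hspa13 was lower among 22 other folding genes (log2 fold change -0.53; exact permutation P = 0.0286). Edem3, a mannosidase that marks glycoproteins for degradation, was lower among 23 other degradation genes, at 261 to 313 in controls and 208 to 232 in AF1 peptide-treated mice (log2 fold change -0.39; exact permutation P = 0.0286). Of 37 other translocation and glycosylation genes, Sec11a, a signal peptidase subunit, was lower (log2 fold change -0.23; exact permutation P = 0.0571) and Sec61a2 was higher (0.24; exact permutation P = 0.0286). Psph, an enzyme of serine synthesis, was the one of 31 other ATF4 and CHOP targets that passed, and was lower (log2 fold change -0.39; exact permutation P = 0.0286). Of 31 other sensors, eIF2 factors and ER-bound factors, Nck1 (log2 fold change -0.44; exact permutation P = 0.0571) and Eif2b2 (-0.24; exact permutation P = 0.0286) were lower. All of these passed limma at an unadjusted p under 0.05 and had an adjusted p of 0.763. By the same limma test 0 of 13 genes for tRNA synthetases and a tRNA exporter passed. Neither Sec61a2 nor Eif2b2 passed with libraries rescaled to equal totals.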

How the data were processed

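RNA-Seq of 8 livers (4 control, 4 AF1 peptide) was used. The authors trimmed reads with Trim Galore 0.6.7, aligned them with HISAT2 2.2.1, sorted alignments by SAMtools 1.17 and obtained counts for each gene from GenomicAlignments. The submitters' processing notes name mm39, so no coordinate was taken from the deposited table. How strand and reads matching several genes were handled in counting is not given in the sources used here. The authors deposited normalized read counts, a signal equal to the read count divided by a library size factor (0.547 to 1.21 here). Dividing each library by its smallest step recovered whole reads, and 100% of 172256 values came out whole within 0.01 read.

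limma 3.58.1 (R 4.3.3) was fitted to log2(normalized count + 1) (moderated variances with an intensity trend, no block) for genes with a mean of at least 10, on all genes, with p values two-sided and unadjusted, and Benjamini-Hochberg adjusted over all tested genes. Single genes were also compared by two-sided exact permutation tests over mice. A gene was called at an unadjusted p under 0.05, as in the study's methods. The limma test was tested on simulated data. edgeR 4.0.16 and DESeq2 1.42.0 ran on recovered reads as alternatives, beside other pseudocounts (0.5, 5), the unfiltered table, at least 10 in every mouse, TMM scaling, equal totals, no trend, each gene's own variance, the replicate number as a block, a 1.3-fold minimum and each mouse left out.

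The genes and lists were chosen with earlier results of these data known, so no test was made over a list. Named with a test of their own were Hspa5, Xbp1, Atf4 and Ddit3, every called or non-overlapping gene, and the 2 smallest p values of each class. Asns, and Canx and Dnajb9 in the comparison without AF1 peptide replicate 1, were named after their values were seen. Of the wider lists, called genes were named. Replicate numbers stand for different mice. Correlations of deviations between same-numbered mice were 0.235, 0.0238, 0.217 and -0.06. Their mean was 0.103, against -0.034 for differently numbered mice, which does not settle whether the numbers are pairs. The study's methods name an unpaired test, so the numbers were not taken as pairs in the main test. Replicates of a group differed by a chi-square of 16.1 to 344 per degree of freedom, so none was a copy of another. The labels call the replicates biological.

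Exon lengths, overlaps and 50-base words came from GENCODE M21 and promoters from RefSeq, both on GRCm38. In that annotation, genes on the opposite strand overlap exons of Ppp1r15b (11.4% of its exon bases), Hsp90b1 (10.3%), Sec61a1 (8.16%) and Eif2ak3 (8.05%). Opposite-strand genes also overlap exons of Pdia3, Pdia6, Dnajb9, Manf, Syvn1, Derl2, Ddit3, Ppp1r15a and Atf5. Genes on the same strand overlap exons of Hsp90b1 (Gm25745 and Gm15344), Manf (Rbm15b) and Pdia4 (Mir704). Protein sequences were not used here.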

Additional observations from a re-analysis of the deposited data

Results flagged for a closer look

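In groups of 4 mice, the highest or lowest mouse was taken as apart when its gap to the next exceeded Dixon's 95% critical share of the group's range. Of 62 groups examined for the genes named in the text and for library measures, 3 had such a mouse, where chance at about 1 in 20 would give 3.1.

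Asns in AF1 peptide-treated mice had replicate 1 apart, with a gap of 0.941 of the range, at a normalized count of 309.8 against 13.8 to 31.3 in the other 3. Hspa13 in controls had replicate 2 apart, with a gap of 0.884 of the range, at 239 against 178 to 185. Sequencing depth in controls had replicate 1 apart, with a gap of 0.857 of the range, at 45117528 reads.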

How the results depend on the processing

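Of the 39 genes, 2 were called with all mice; the count was 1 with a minimum of 10 in every mouse (0 higher), 1 with each gene's own variance (0 lower), 1 with DESeq2 (0 lower), 2 with edgeR (2 higher, 0 lower), and 0 in either direction after Benjamini-Hochberg adjustment. With the replicate number as a block, 4 were called (2 higher, 2 lower), namely Pdia6 and Ddit3 beside Derl3 and Eif2ak3, and 1244 of all genes; 4 of 8 mice correlated best with their own number. Leaving out 1 mouse gave 1 to 6 of the 39 (1 to 2 higher, 0 to 5 lower). The 6 came without AF1 peptide replicate 1, a count of 1 came without control replicate 1 or 2, and 2 higher without control replicate 3 or AF1 peptide replicate 2 or 4; 0 lower also came without AF1 peptide replicate 4. Over all genes, 990 calls became 590 with a 1.3-fold minimum (286 higher, 304 lower), 0 after adjustment, and 542 (without control replicate 2) to 1603 (without AF1 peptide replicate 1) with 1 mouse left out, as 288 to 732 higher and 254 to 871 lower. Equal totals moved the median of all genes from -0.01 to -0.10 and the split from 506 higher and 484 lower to 129 and 771. Class medians moved with it, to -0.196 for folding, -0.103 for degradation, -0.228 for the translocon, -0.240 for sensors and -0.0370 for the PERK/ATF4 arm, and folding genes lowest in AF1 peptide replicate 3 fell from 11 to 7. The degradation median was -0.0536 with a minimum of 10 in every mouse. With 1 mouse left out the medians ran from -0.158 to -0.0339 for folding, -0.0517 to 0.0787 for degradation, -0.191 to -0.0765 for sensors and -0.0116 to 0.0965 for the PERK/ATF4 arm. ER to Golgi genes called lower numbered 2 with own variance, 1 with the 1.3-fold minimum, 0 after adjustment, and 2 to 6 with 1 mouse left out. The depth difference (AF1 peptide minus control, -1.93 M reads) ran from -4.53 to 2.45, and was 0.407 without control replicate 1 and 2.45 without AF1 peptide replicate 2. Other causes of these shifts were not tested. Derl3, Chac1 and Asns rest on few reads, and 4 mice per group leave intervals of up to 2-fold or more for single genes.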

Other observations

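Among 31 tested ATF4 and CHOP targets outside the 39 genes, AF1 peptide replicate 1 lay above all other mice in 6 and below all of them in 12, and over all tested genes it lay above in 25.9% and below in 23.4%. The genes below were picked for these values. Besides Asns, Cth, which makes cysteine from cystathionine, was at 14656 in this mouse against 920.2 to 3639.9 in the other 7. Slc38a2, a transporter of neutral amino acids, was at 5525 against 1503 to 1963.

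Other targets of the same factors were lowest in that mouse. Fgf21, a fasting and stress hormone of the liver, was at 81.2 against 469.7 to 1209 in the other 7 mice, and Gdf15, a stress hormone that curbs appetite, was at 419.9 against 682 to 1296. Atf3 was at 69.99 against 117 to 256, Slc7a5 at 28.0 against 38.4 to 70.4, and Mthfd2, a mitochondrial folate enzyme, at 24.3 against 27.4 to 48.6. The genes named here were picked for lying at opposite ends in this mouse. Over all tested genes it lay above all others in 25.9% and below all others in 23.4%, so such values are not particular to this pathway. The group comparison called Psph alone among the 31.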
